A study of Sus scrofa with 4 samples.

Results

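The small subunit of the cytosolic ribosome was followed through 33 of its genes in mature porcine oocytes. A gene was included if its symbol was RPS followed by a number with an optional A, X or L, or RPSA or FAU, and if it had values in the deposited table, which was the case for 33 of 16050 genes with values. The 33 genes cover all 32 protein genes listed for the head, body and platform of the subunit and RPS27L, a paralog of RPS27. The libraries came from metaphase II oocytes of slaughterhouse ovaries, matured in vitro as cumulus-oocyte complexes for 44 h. The Control group had no added Cu and the Cu group had Cu sulfate at 25 μg/mL in the maturation medium, with all other supplements shared. Each library pooled 3 oocytes and was made by Smart-seq2, which amplifies polyadenylated mRNA from a few cells. The labels give Control libraries 1 and 2 and Cu libraries 1 and 3, and do not say whether these came from separate cultures, so that a p-value measures only the spread between them. Strain and age are not given in the sources used here.

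Ribosomal proteins of the small subunit fold around the small ribosomal RNA into a head, a body and a platform, which together bind the mRNA, scan it for the start codon and hold the decoding centre. Each protein is present once per subunit. Their mRNAs carry a terminal oligopyrimidine (TOP) tract at the 5′ end, through which mTOR signalling and LARP1 set their translation. Fully grown oocytes are transcriptionally silent and draw on stored ribosomes and stored mRNA, and stored mRNAs are lengthened or shortened at their poly(A) tails during maturation.

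Values are FPKM, fragment numbers divided by transcript length and by the library total. Gene positions are those of the Sscrofa11.1 assembly. In each pair of values below, Control 1 comes before Control 2 and Cu 1 before Cu 3. FPKM are relative, so that more mRNA of a gene and less mRNA of all other genes cannot be told apart, and fewer cells and less RNA per cell cannot be told apart either. Total FPKM lay between 616082 and 672681, and 7923 to 8162 genes reached 1 FPKM in Control 1, Control 2 and Cu 3, against 9364 in Cu 1. Cu 1 stood apart from the other libraries, with Pearson's r of 0.918 to 0.923 over log2(FPKM + 1) of the 8541 tested genes, while the other pairs had 0.959 to 0.976. All 10 oocyte markers were present, including ZP2 at 495 to 1198 FPKM and DPPA3 at 2649 to 3654 FPKM. The lowest were NLRP5 at 1.88 to 8.70 FPKM and ZAR1 at 4.56 to 24.9 FPKM, both highest in Cu 1. Of 16 cumulus and granulosa markers 11 had values, which summed to 11.7 and 18.01 FPKM in the Control libraries and 16.4 and 14.9 FPKM in the Cu libraries. FST made up most of that sum, PTX3 was at 0.10 FPKM or less, and NR5A2 was listed at 0 in all 4 libraries. The blood and immune list had values for PTPRC only, at 0.09 to 0.32 FPKM.

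In the Control oocytes the mRNAs of this subunit were at moderate levels and very unequal. The 33 genes together held 0.508% and 0.428% of all FPKM in Control 1 and 2, with a median of 25.9 and 24.8 FPKM, which was above 74.8% and 73.2% of the tested genes. RPS27L was the highest and FAU the lowest in both, 215-fold apart in Control 1 and 202-fold in Control 2. The 5 highest genes held 76.4% and 72.3% of the sum over the 33 genes. RPS27L had 636 and 535 FPKM, RPS24 had 512 and 506 FPKM, RPS20 had 558 and 307 FPKM, RPS28 had 510 and 244 FPKM, and RPS3 had 319 and 315 FPKM in Control 1 and 2. RPS20 and RPS28 changed places with RPS3 between the Control libraries, and RPS20 with RPS24, so these pairs cannot be put in order. RPS24 was above RPS3 and RPS28 in both. RPS10 had 95.2 and 71.5 FPKM. At the low end were FAU with 2.96 and 2.65 FPKM, RPS19 with 3.39 and 5.01 FPKM and RPS2 with 6.47 and 4.73 FPKM. The order of the 33 genes was nearly the same in the Control libraries (Spearman's rho of 0.970 over 33 genes of the same libraries, as a description). With Cu 3 it was 0.924 and 0.954, and with Cu 1 it was 0.767 and 0.782. Mammalian genomes hold many processed copies of ribosomal protein genes with nearly their sequence. Levels of the 33 genes are uncertain as far as reads were divided with such copies.

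**Figure D1:**
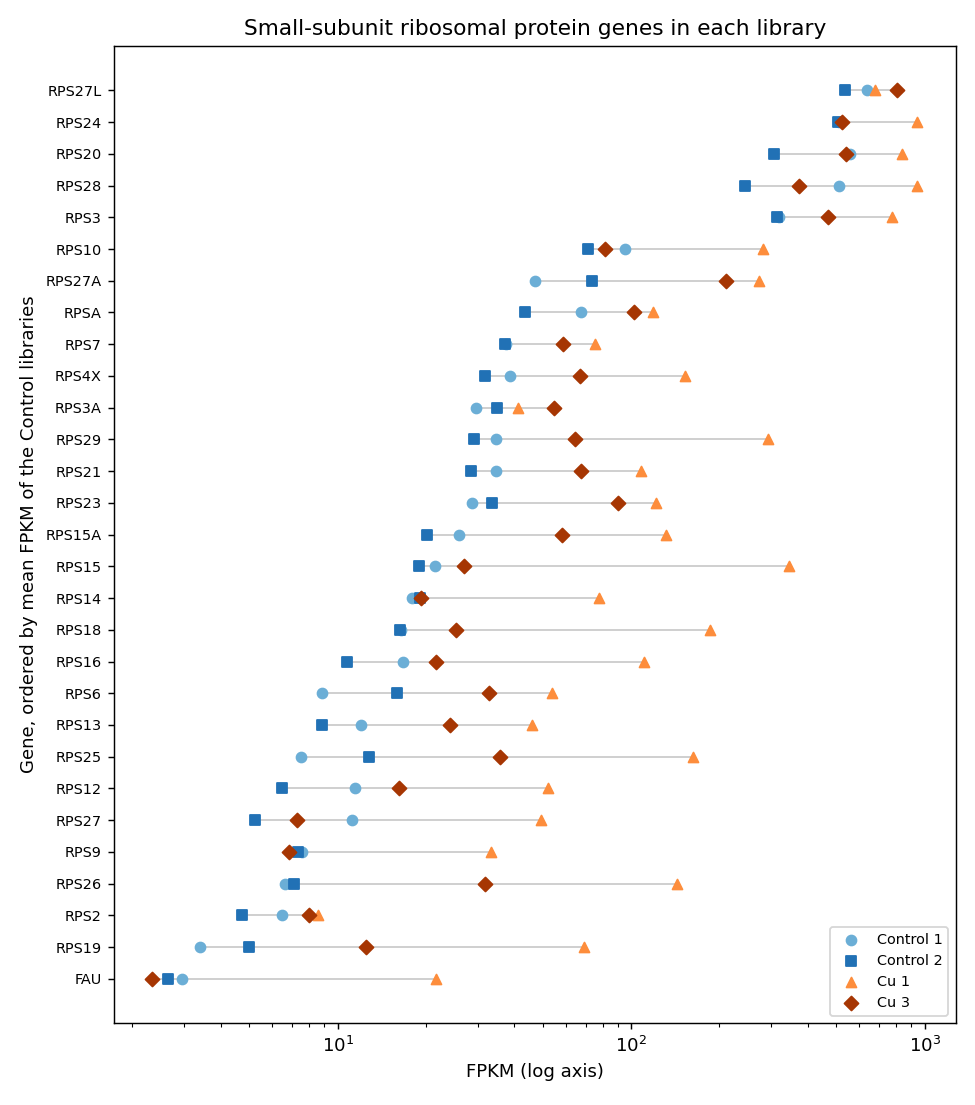
FPKM of small-subunit ribosomal protein genes on a log axis, 1 row for each of the 29 genes named here, ordered by the mean of the Control libraries, with 1 symbol per library and a grey line from the lowest to the highest library. Cu 1 is the rightmost symbol in 27 of the 29 rows, and the Control symbols lie close together, with a median gap of 0.28 on the log2(FPKM + 1) scale over all 33 genes.

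All 33 genes had a higher mean in the libraries labelled Cu. On log2(FPKM + 1), the median log2 fold change of the 33 genes was 1.42, with a range from 0.34 for RPS27L to 3.12 for RPS26, beside a median of 0.16 over all 8541 tested genes. A gene is called here if its unadjusted p is at most 0.05 and its log2 fold change is at least 1.5. By these limits 12 of the 33 genes were called higher and 0 lower, where 1.76% of all tested genes were called higher and 0.117% lower. At an unadjusted p of 0.05 alone, 19 of the 33 genes were higher, beside 5.58% of all tested genes. After Benjamini-Hochberg adjustment over all tested genes no gene reached 0.05 in limma's test (0% of the tested genes), and the smallest adjusted p among the 33 genes was 0.63. Among the libraries analysed here, the groups did not overlap in 27 of the 33 genes. The Cu pair was on top in each, and 0 genes had the Cu pair below. Of all tested genes, 25.4% had the Cu pair on top without overlap and 13.4% below. The 6 genes with overlapping groups were RPS9, RPS10, RPS20, RPS27, RPS28 and FAU. With median-of-ratios scaling the median of all tested genes moved from 0.16 to -0.042, and 107 of all tested genes were called higher and 24 lower, beside 150 and 10 without this scaling. With it, 8 of the 33 genes were called, among them 6 of the 12, the groups did not overlap in 23, and all 33 had fold changes above 0.

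**Figure D2:**
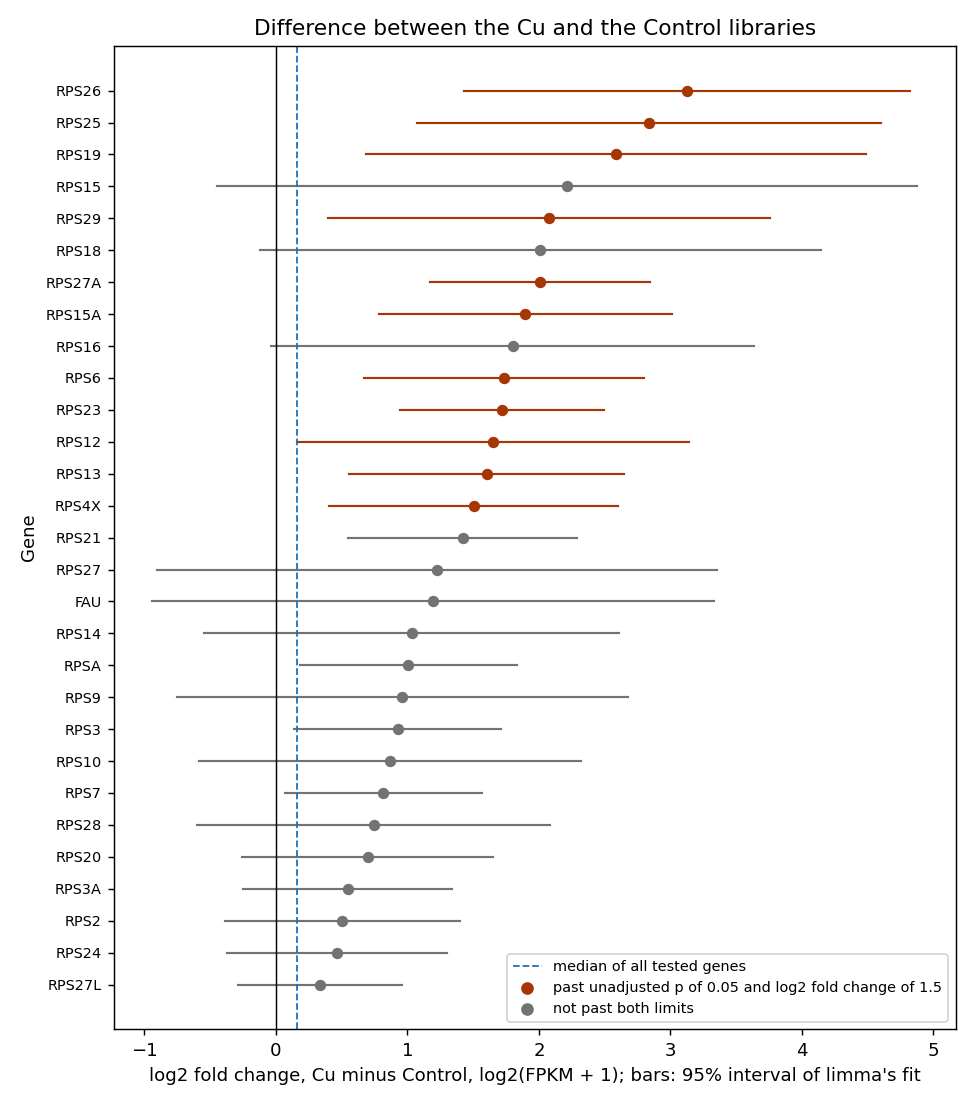
Log2 fold change of each of the 29 genes named here, Cu minus Control on log2(FPKM + 1), with the 95% interval of limma's fit as a bar, a solid line at 0 and a dashed line at the median of all tested genes. All points lie to the right of the dashed line, and the intervals of 14 genes include 0.

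In the head of the subunit, which turns during translation and holds the tRNAs against the mRNA, 5 of 14 genes were called and the median log2 fold change was 1.72. RPS25 (chr9:46237911-46242174), which many viral internal ribosome entry sites need, had 7.5 and 12.8 FPKM in the Control pair versus 162 and 35.8 FPKM in the Cu pair. This is a log2 fold change of 2.84 with a standard error of 0.72, and limma gave an adjusted p of 0.63. RPS19 (chr6:50003198-50010135), the gene most often mutated in Diamond-Blackfan anaemia, had 3.39 and 5.01 FPKM in the Control pair versus 69.4 and 12.5 FPKM in the Cu pair. The log2 fold change of RPS19 was 2.58 with a standard error of 0.78, and limma gave an adjusted p of 0.64. In both genes the Control pair and the Cu pair did not overlap, and Cu 1 was several times above Cu 3. RPS29 (chr1:179454923-179456847), a small zinc-binding protein, had 34.7 and 29.2 FPKM in the Control libraries and 292 and 64.6 FPKM in Cu 1 and 3, with a log2 fold change of 2.08 (standard error 0.69). RPS12 had 11.4 and 6.46 FPKM in the Control pair versus 52.1 and 16.2 FPKM in the Cu pair, with a log2 fold change of 1.65 (standard error 0.61).

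RPS15, whose tail reaches towards the decoding centre, and RPS18, which bridges to the large subunit, were far higher in 1 library only. RPS15 (chr2:77043329-77044749) had 21.4 and 19.0 FPKM in Control 1 and 2, 344 FPKM in Cu 1 and 26.9 FPKM in Cu 3, so that Cu 1 was 12.8 times Cu 3, the widest gap between the Cu libraries among the 33 genes. Its log2 fold change of 2.21 had a standard error of 1.09 and an interval from -0.45 to 4.88. RPS18 had 16.5 and 16.3 FPKM in the Control pair versus 186 and 25.3 FPKM in the Cu pair. Its log2 fold change of 2.01 had an interval from -0.12 to 4.14. The Control values of RPS18 were nearly equal, so that the width of its interval came from the Cu libraries. RPS16 had 16.7 and 10.8 FPKM against 110 and 21.7 FPKM, with an interval from -0.034 to 3.63. None of these 3 genes was called, although the Cu libraries were above the Control libraries in each.

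The abundant head genes RPS3, RPS20 and RPS28 had log2 fold changes between 0.70 and 0.93. RPS3, which lines the mRNA entry, had 319 and 315 FPKM in the Control pair versus 777 and 468 FPKM in the Cu pair, a log2 fold change of 0.93 (standard error 0.32). RPS3 was under an unadjusted p of 0.05 without reaching the fold limit. RPS28 had 510 and 244 FPKM in the Control pair versus 941 and 372 FPKM in the Cu pair, so that Cu 3 lay between the Control libraries. Its Control gap of 1.06 on the log2 scale was the widest among the 33 genes, and the interval of its fold change ran from -0.60 to 2.09. RPS20, which the ubiquitin ligase ZNF598 marks on stalled ribosomes, had 558 and 307 FPKM against 837 and 539 FPKM, and RPS10, another ZNF598 target, had 95.2 and 71.5 FPKM against 282 and 81.2 FPKM. For both, Cu 3 also lay between the Control libraries, and the intervals ran from -0.26 to 1.65 for RPS20 and from -0.58 to 2.32 for RPS10.

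In the body and platform, which hold the mRNA exit and much of the decoding centre, 7 of 18 genes were called and the median log2 fold change was 1.32. RPS26 (chr5:21431656-21433691), which contacts the mRNA at the exit channel, had 6.64 and 7.11 FPKM in the Control pair versus 143 and 31.7 FPKM in the Cu pair. Its log2 fold change was 3.12 (standard error 0.69) with an interval from 1.43 to 4.82, the largest change of the 33 genes, and its adjusted p from limma was 0.63. Its place in the order of levels moved from 30 and 27 of 33 in the Control libraries to 15 in Cu 1 and 21 in Cu 3. RPS23, at the decoding centre, had 28.8 and 33.7 FPKM in the Control libraries and 121 and 90.2 FPKM in Cu 1 and 3. Its Cu libraries were close to each other, and the log2 fold change of 1.72 had a standard error of only 0.32. RPS6, the target of S6 kinase downstream of mTOR, had 8.88 and 16.0 FPKM against 53.9 and 32.8 FPKM, a log2 fold change of 1.73 (standard error 0.43).

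RPS15A had 25.9 and 20.1 FPKM in the Control pair versus 132 and 58.4 FPKM in the Cu pair, a log2 fold change of 1.90 (standard error 0.46). RPS13 had 12.04 and 8.82 FPKM against 46.1 and 24.2 FPKM, and RPS4X, encoded on the X chromosome, had 38.7 and 31.8 FPKM against 153 and 67.1 FPKM. Both were only just past the fold limit, with log2 fold changes of 1.60 and 1.5. Just below the limit was RPS21, with 34.7 and 28.4 FPKM against 108 and 67.8 FPKM and a log2 fold change of 1.42. RPSA, also known as a laminin receptor, had 67.6 and 43.6 FPKM against 119 and 102 FPKM, a log2 fold change of 1.01 (standard error 0.34). RPS7, which can bind the p53 regulator MDM2, had 37.5 and 37.2 FPKM against 75.7 and 58.7 FPKM, a log2 fold change of 0.82 (standard error 0.31). RPS21, RPSA and RPS7 were under an unadjusted p of 0.05 without reaching the fold limit.

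The remaining genes of the body and platform were not under an unadjusted p of 0.05. RPS14, which lies in the platform, had 17.9 and 19.2 FPKM in Control 1 and 2, 77.8 FPKM in Cu 1 and 19.3 FPKM in Cu 3. RPS9 had 7.55 and 7.34 FPKM in the Control libraries, 33.4 FPKM in Cu 1 and 6.86 FPKM in Cu 3. Cu 3 was thus at the Control level in RPS14 and below both Control libraries in RPS9. RPS24 (chr14:80473867-80480818), another Diamond-Blackfan gene, was among the most abundant and had 512 and 506 FPKM against 944 and 522 FPKM, with a log2 fold change of 0.46 and an interval from -0.38 to 1.30. RPS2, at the mRNA entry, had 6.47 and 4.73 FPKM against 8.57 and 8.02 FPKM, with a log2 fold change of 0.51 and an interval from -0.39 to 1.40. RPS3A had 29.6 and 35.0 FPKM against 41.1 and 54.8 FPKM, a log2 fold change of 0.55. RPS3A and RPS27L were the only members with Cu 3 above Cu 1.

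Divided by evolutionary origin, the 15 proteins with a bacterial counterpart had a median log2 fold change of 1.54 with 5 called, and the 17 without one had a median of 1.42 with 7 called. The 33 genes lie on 13 chromosomes, with at most 6 on any of them. By level, the 6 genes with 100 FPKM or more as the mean of the Control libraries had a median log2 fold change of 0.72 with 0 called, and the 27 genes below it had a median of 1.54 with 12 called. Over the 33 genes, Spearman's rho between the mean Control level and the fold change was -0.48. This is a description, since both measures share the Control values.

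RPS27L is a p53-responsive paralog of RPS27, and both had values. RPS27L (chr1:108881330-108886334) had 636 and 535 FPKM in the Control pair versus 676 and 802 FPKM in the Cu pair. Its log2 fold change of 0.34 was the smallest of the 33 genes, with an interval from -0.29 to 0.96. RPS27 had 11.2 and 5.25 FPKM in the Control libraries and 49.5 and 7.28 FPKM in Cu 1 and 3, so that Cu 3 lay between the Control libraries, and its log2 fold change of 1.23 had an interval from -0.90 to 3.35. The FPKM of RPS27L was 56.6 and 102 times that of RPS27 in Control 1 and 2, 110 times in Cu 3 and 13.7 times in Cu 1. Cu 1 was therefore the library in which the paralogs were closest. Their coding sequences are alike, and reads may have been divided between them.

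Both members that are made as fusions to a ubiquitin-like protein had values. RPS27A (chr3:85989609-85992257), a fusion to ubiquitin itself, had 46.9 and 73.4 FPKM in the Control pair versus 272 and 211 FPKM in the Cu pair. Its log2 fold change of 2.01 had a standard error of 0.34, and its unadjusted p of 0.0011 in limma's test was the smallest of the 33 genes (adjusted p = 0.63). FAU, a fusion to the ubiquitin-like protein FUBI, was the lowest member in Control 1, Control 2 and Cu 3. It had 2.96 and 2.65 FPKM in the Control libraries, 21.7 FPKM in Cu 1 and 2.34 FPKM in Cu 3, below both Control libraries. The interval of its log2 fold change of 1.2 ran from -0.94 to 3.33. Among the members with the widest gaps between the Cu libraries, FAU and RPS18 followed RPS15, with 2.77 and 2.83 on the log2 scale.

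The height of the Cu group depended on the library. Cu 1 exceeded the Control pair in 33 of the 33 genes and Cu 3 exceeded it in 27, beside 58.1% and 37.4% of all tested genes. Relative to the mean FPKM of the Control libraries, the median member was at 4.34 times in Cu 1 and 1.70 times in Cu 3. The median gap between the Cu libraries was 1.17 on the log2 scale, against 0.28 between the Control libraries, while over all tested genes these gaps were 0.56 and 0.27. The wide gap between the Cu libraries and the larger number of genes at 1 FPKM in Cu 1 went together, and the part of the latter in the result was not tested. Without Cu 1 the median log2 fold change was 0.75, 4 genes were called (RPS23, RPS25, RPS26 and RPS27A), and FAU, RPS9, RPS10 and RPS27 had fold changes below 0. Without Cu 3 the median was 2.04 and 23 genes were called. With 1 Cu library left, the spread comes from the Control libraries alone and the lone library is assumed to vary as little as they do. In these fits 5 members without Cu 1 and 30 members without Cu 3 had adjusted p-values from limma of at most 0.05, as did 203 of 8054 and 1890 of 8297 tested genes. The 5 members were RPS15A, RPS23, RPS25, RPS26 and RPS27A.

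**Figure D3:**
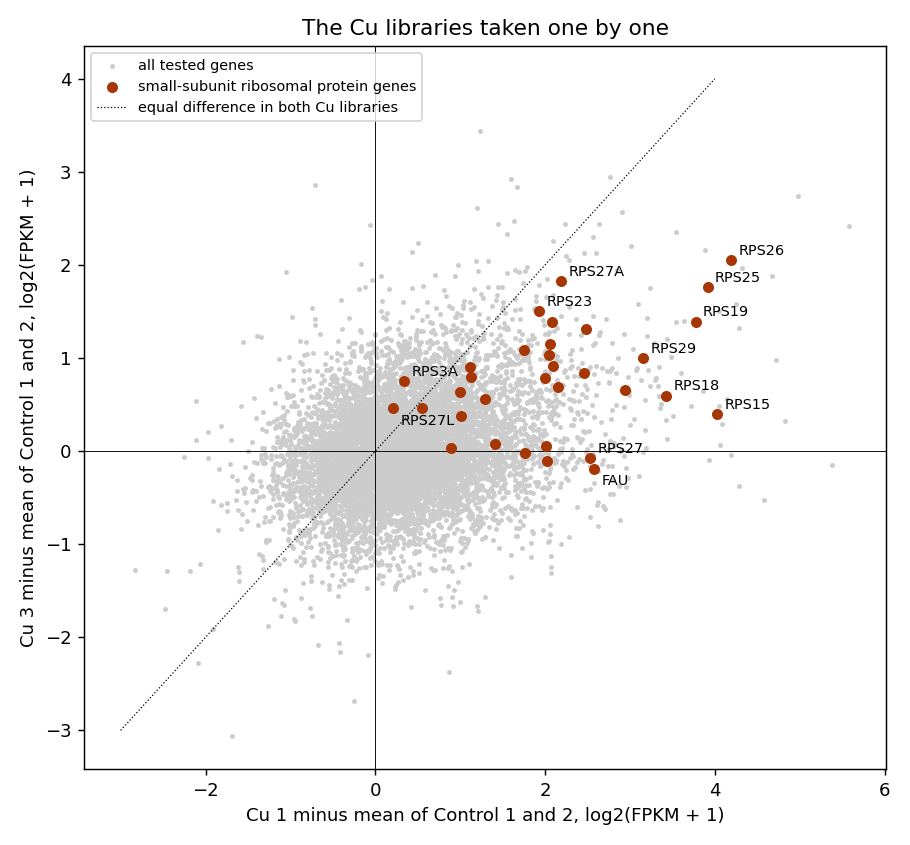
Difference of Cu 1 (horizontal axis) and of Cu 3 (vertical axis) from the mean of the Control libraries on log2(FPKM + 1), for the 33 small-subunit genes in red over all tested genes in grey, with a dotted line where both differences are equal. Of the 33 genes, 31 lie below the dotted line, RPS27A and RPS23 close to it and RPS15 farthest from it.

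The authors' mean FPKM of each group put the groups closer together than the libraries did. Multiplied by 3, the means of all 16050 genes came out as whole hundredths (tolerance of 0.01 hundredths), as sums over 3 libraries would, so that 1 library per group is in the means and was not analysed here on its own. For 27 of the 33 genes the authors' Control mean was above both Control libraries, which was the case for 27.1% of all tested genes, and it was below both for 0, beside 18.9%. The authors' Cu mean was above both Cu libraries for 0 of the 33 genes, beside 10.4% of all tested genes, and below both for 3, beside 10.6%. RPS29, chosen as an example after its values were seen, had authors' means of 111 FPKM for Control and 148 FPKM for Cu, while Control 1 and 2 had 34.7 and 29.2 FPKM. Its authors' Control mean was also above Cu 3, at 64.6 FPKM. The Control library not analysed here would thus lie above Cu 3, and the groups of RPS29 would overlap with it. Calls and counts of genes without overlap therefore hold only for the libraries analysed here. By the authors' means 29 genes were higher and 4 lower in Cu, with a median log2 difference of 0.86, beside 0.11 over all tested genes. The 4 lower genes were RPS2, RPS20, RPS27L and RPS28, and RPS28 had 646 FPKM for Control and 508 FPKM for Cu. For RPS26 the authors' means were 10.1 and 74.7 FPKM, closer together than the means of 6.88 and 87.4 FPKM over the libraries analysed here.

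As a share of all FPKM, the 33 genes made up 0.508% and 0.428% in Control 1 and 2, 1.17% in Cu 1 and 0.620% in Cu 3. The means were 0.468% ± 0.056 (SD, n = 2) for Control and 0.893% ± 0.385 (SD, n = 2) for Cu. An exact two-sided permutation test over 2 libraries against 2 gave a p of 0.333, the smallest this design can give. In Cu 1 the 5 highest members held 54.2% of the sum and in Cu 3 64.8%, less than in the Control libraries. Of the 33 genes, 21 were among the 1000 genes with the highest FPKM in Cu 1 and 11 in Cu 3, against 7 and 6 in Control 1 and 2.

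Genes that build, regulate and inspect the small subunit had median differences near 0. Assembly factors, which process the small ribosomal RNA and place the proteins on it, had 50 tested genes of 64 and a median log2 fold change of 0.11, with 1 called higher and 0 lower. UTP3 was that gene, with 9.46 and 12.3 FPKM against 32.1 and 32.7 FPKM and a log2 fold change of 1.5, followed by RCL1 with 1.28. At the other end were NOL11 with -0.82 and DIMT1, the dimethyltransferase of the small ribosomal RNA, with 194 and 200 FPKM against 98.2 and 137 FPKM and -0.76. The 64 genes held 0.786% and 0.829% of all FPKM in the Control pair and 0.824% and 0.854% in the Cu pair. NGDN, singled out after its values were seen, had 2406 to 2608 FPKM of their 5107 to 5745 FPKM. The list of mTOR signalling and TOP mRNA regulators had 15 tested genes of 24, with a median of -0.0096 and 0 called. LARP4B and MLST8 had the largest log2 fold changes, 0.87 and 0.69, and LARP4 and CNBP, which binds TOP mRNA, the smallest, -0.46 and -0.20. LARP1 itself had 16.7 and 17.9 FPKM in the Control libraries, 26.4 FPKM in Cu 1 and 9.70 FPKM in Cu 3.

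Partners of the finished subunit and of its surveillance had 21 tested genes of 25, with a median log2 fold change of 0.13 and 0 called. RACK1, a scaffold protein that sits on the head of the subunit as a constant component, had 1.10 and 1.57 FPKM in Control 1 and 2, 23.9 FPKM in Cu 1 and 1.93 FPKM in Cu 3. Its pattern was that of RPS15 and FAU, high in Cu 1 only, and its log2 fold change of 1.88 had a standard error of 0.96. PELO, a ribosome rescue factor, followed with 1.24, and the smallest were G3BP1 with -0.60 and USP21 with -0.58.

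The other ribosomal lists serve to place these values. The large subunit, with 46 tested genes of 48, had a median log2 fold change of 1.36 with 13 called, and it held 0.432% and 0.496% of all FPKM in the Control pair and 1.502% and 0.903% in the Cu pair. Every one of its 46 tested genes had a fold change above 0, as in the small subunit. The MRPS genes, nuclear genes of the mitochondrial small subunit, had 25 tested genes of 28, a median of 0.49 and 1 called. Their shares of 0.589% and 0.513% in the Control pair stood beside 0.582% and 0.811% in the Cu pair. Here Cu 3 and not Cu 1 had the highest share. No test of the difference between these lists was made.

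**Figure D4:**
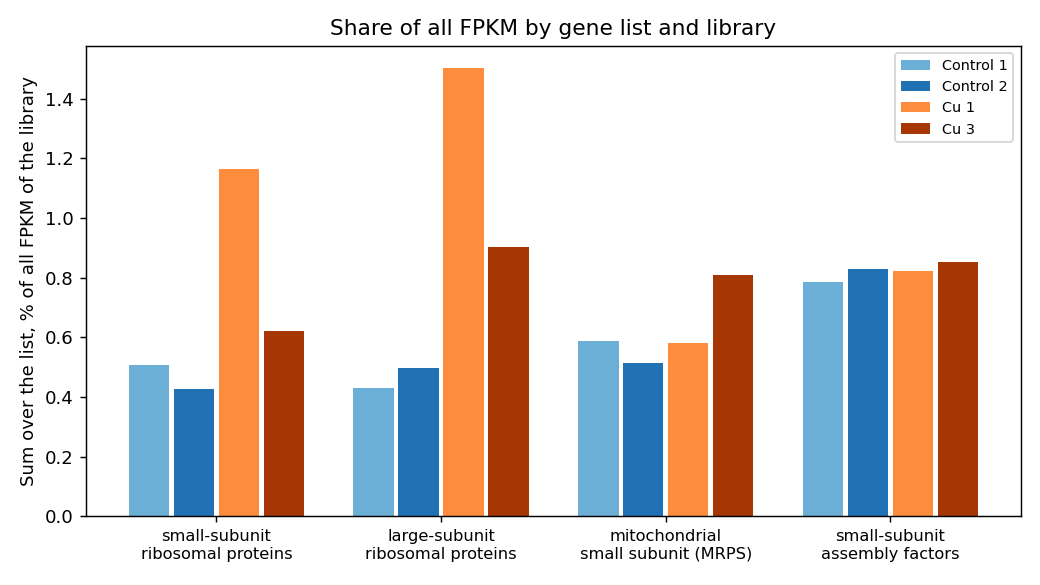
Sum of the FPKM of 4 gene lists as a percentage of all FPKM in each library, with 1 bar per library and no error bars. The small and the large cytosolic subunit are highest in Cu 1, the mitochondrial small subunit is highest in Cu 3, and the assembly factors lie between 0.786% and 0.854% in all libraries.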

How the data were processed

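Smart-seq2 libraries of porcine oocytes were analysed, 2 per group. Per the paper, the authors filtered reads with SOAPnuke, mapped them with HISAT2 and Bowtie2 and computed expression with RSEM, whereas the submitters' processing notes name TopHat2, Cufflinks, Cuffnorm and Cuffdiff with Sscrofa11.1. The deposited unit is FPKM, computed by the authors and rounded to 2 decimals, which does not keep read numbers, so the depth is unknown and no count test was run. The authors' mean FPKM of each group was used only as such.

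Genes were tested if 2 or more libraries reached 1 FPKM (8541 genes). Cu and Control were compared on log2(FPKM + 1) by limma 3.58.1 under R 4.3.3 (eBayes with a variance trend, Benjamini-Hochberg adjustment over all tested genes). Intervals are 95% intervals of this fit. The fit was tested on simulated data for its calls and fold changes, but not for its intervals. The simulated spread was the same in both groups, unlike in these data. A member counts as called at an unadjusted p of 0.05 or less and a log2 fold change of 1.5 or more. Alternatives were another pseudocount, other filters, quantile normalization, median-of-ratios scaling, no variance trend, a fold limit of 1, another denominator for the share and leaving out each library. The authors' means were added after seeing the data.

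The members, lists and tests were chosen with earlier results of these data known. The text and the plots name 29 of the 33 members, and the values of the other 4 are not reported here singly, but are in every count and median. Members with the largest and smallest fold changes, the widest gaps within a group and the highest FPKM, the paralog RPS27L and the fusion genes are described in full. Of each list of other pathway genes, the 2 genes with the largest and the 2 with the smallest fold change are named, and RACK1. Coordinates are from the RefSeq gene table of Sscrofa11.1, in which all 33 gene identifiers were found. Sequences were not used here.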

Additional observations from a re-analysis of the deposited data

How the results depend on the processing

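Of the 12 called genes, RPS25, RPS26 and RPS27A stayed called under all 10 alternatives that refitted the genes, and RPS23 and RPS15A under 9. None of these refits held the library of each group that is only in the authors' means. The authors' Control means of RPS25 and RPS27A were 19.4 and 115 FPKM, above both Control libraries. Taken as means over 3 libraries, they put the remaining Control library above Cu 3, at 35.8 and 211 FPKM. For RPS26 it would lie below Cu 3. The number of called genes was 4 without Cu 1, 23 without Cu 3 and 8 without Control 1 and without Control 2, 8 with median-of-ratios scaling, 10 with quantile normalization, and 11 to 13 with another pseudocount or filter or without the variance trend. With a fold limit of 1 it was 16. Median-of-ratios scaling lost 6 of the 12 calls and gained 2, and quantile normalization lost 4 and gained 2. The median log2 fold change lay between 0.75 without Cu 1 and 2.04 without Cu 3, and was 1.30 after quantile normalization, 1.18 after median-of-ratios scaling and 0.86 by the authors' means. Without Cu 1 the log2 fold changes turned to -0.19 for FAU (2.58 without Cu 3), -0.10 for RPS9 (2.03), -0.022 for RPS10 (1.76) and -0.078 for RPS27 (2.53). No other gene of the 33 turned in the refitted alternatives, while by the authors' means RPS2, RPS20, RPS27L and RPS28 were lower in Cu. The groups did not overlap in 23 of 33 genes after quantile normalization and in 23 after median-of-ratios scaling. The difference in the share of all FPKM, 0.425 percentage points, was 0.455 without the gene of the largest FPKM in the denominator, and lay between 0.152 without Cu 1 and 0.697 without Cu 3. The cause of these shifts was not tested. No paired analysis was made, since the labels do not say that libraries were paired, and the groups share only replicate number 1. Depth is unknown, so the precision of the weakly expressed genes, such as FAU and RPS19, is not known either.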
